A study of Mus musculus with 13 samples.

Results

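The 9 genes described here belong to, or feed, the programme of the transcription factor T-bet in B cells: the cytokine receptor subunits Ifngr1, Ifngr2 and Il12rb1, the transcription factors Tbx21 (which encodes T-bet), Zeb2 and Runx3, and the surface proteins Cxcr3, Itgax and Fcrl5. They were taken by symbol from a table of 47643 genes, and all 9 were among the 13947 genes with enough reads to be tested. They were proposed with their levels in Whsc1-KO and WT cells already known, so their values in that comparison are given as a description, with standard errors and without p-values. The 6 Whsc1-KO libraries came from B cells lacking Whsc1, a histone H3 lysine 36 methyltransferase, and the 7 WT libraries from B cells of WT littermates. Both groups were of the C57BL/6 strain, and ages are not given in the sources used here. As Whsc1-KO embryos die, fetal liver cells of either genotype were transferred to lethally irradiated RAG1-KO mice. Such hosts make no mature B or T cells of their own but can form natural killer (NK) and myeloid cells, so the B cells of both groups matured in a RAG1-KO host. Splenic B cells, purified by depleting cells that carry CD43, were cultured with lipopolysaccharide (LPS, a ligand of Toll-like receptor 4) at 25 µg/ml for 48 h, and poly-A RNA was sequenced from stranded, paired-end libraries.

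T-bet is the T-box factor that directs type 1 responses in T cells and NK cells. In B cells it is induced by interferon-gamma (IFN-γ), interleukin-12 and Toll-like receptor signals, promotes switching to the IgG2a and IgG2c classes, and marks the CD11c-positive B cells that accumulate with age and in chronic infection. IFN-γ binds a receptor of an IFN-γ-binding chain and a signalling chain that activate the kinases JAK1 and JAK2, and CXCR3 is a chemokine receptor that draws cells to sites where IFN-γ acts.

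The libraries held 39101317 to 49443099 reads in genes in Whsc1-KO and 38881663 to 53019516 in WT. Values are the authors' normalized counts, which are reads divided by 1 size factor per library. Log2 fold changes are Whsc1-KO over WT on the log2(normalized count + 1) scale, which makes the change of a low gene look smaller than it is. A call means an adjusted p under 0.05 in the limma fit over the 13947 tested genes. Whsc1 averaged 4562 ± 624 (SD, n = 6) in Whsc1-KO and 6613 ± 718 (SD, n = 7) in WT, with no overlap (log2 fold change -0.54, limma adjusted p = 0.00049); RNA of the gene thus remained, and a whole-gene value cannot check which exons were deleted. Whsc1-KO replicates 1 to 3 and 4 to 6 stood apart on the first principal component (48.5% of the variance), at -31.9 to -18.7 and -71.2 to -65.1, and on the second (16%), at 41.0 to 45.2 and -33.8 to -11.2. In addition the myeloid marker list summed to 3248 to 4545 in Whsc1-KO replicates 1 to 3, 16446 to 18266 in Whsc1-KO replicates 4 to 6 and 1722 to 3952 in WT. The macrophage lysozyme gene Lyz2 alone reached 7385 to 10272 in Whsc1-KO replicates 4 to 6. Sex-linked genes marked Whsc1-KO replicates 4 and 5 and WT replicates 1 to 5 as female and the other 6 libraries as male. Some results are therefore also given without Whsc1-KO replicates 4 to 6, or within replicates 1 to 3 of both groups. Some are given within the later replicates, or with a score of sex-linked genes in the fit. Among replicates 1 to 3, every Whsc1-KO library was marked male and every WT library female. That comparison therefore cannot tell genotype from sex. Leaving out Whsc1-KO replicates 4 to 6 kept only male libraries in Whsc1-KO, while WT kept its female and male ones. The part of the myeloid RNA and of sex in these results was not tested.

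Cxcr3 differed most of the 9 genes between the genotypes and was the one member higher in every Whsc1-KO library than in every WT library. Tbx21 and Itgax, which encodes CD11c, were higher on average, while both chains of the IFN-γ receptor were lower in every Whsc1-KO library than in any WT library. Zeb2 was lower on average, and Il12rb1, Runx3 and Fcrl5 had log2 fold changes between -0.26 and -0.05. In the fit over all genes, 3 of the 9 were called higher (Cxcr3, Itgax and Tbx21), against 26.1% of all tested genes, and 3 lower (Ifngr1, Ifngr2 and Zeb2), against 25.7%. The groups did not overlap for 1 member on the higher side, against 9.03% of tested genes, and for 2 on the lower side, against 10.2%. These counts describe genes chosen on the same comparison.

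**Figure D1:**
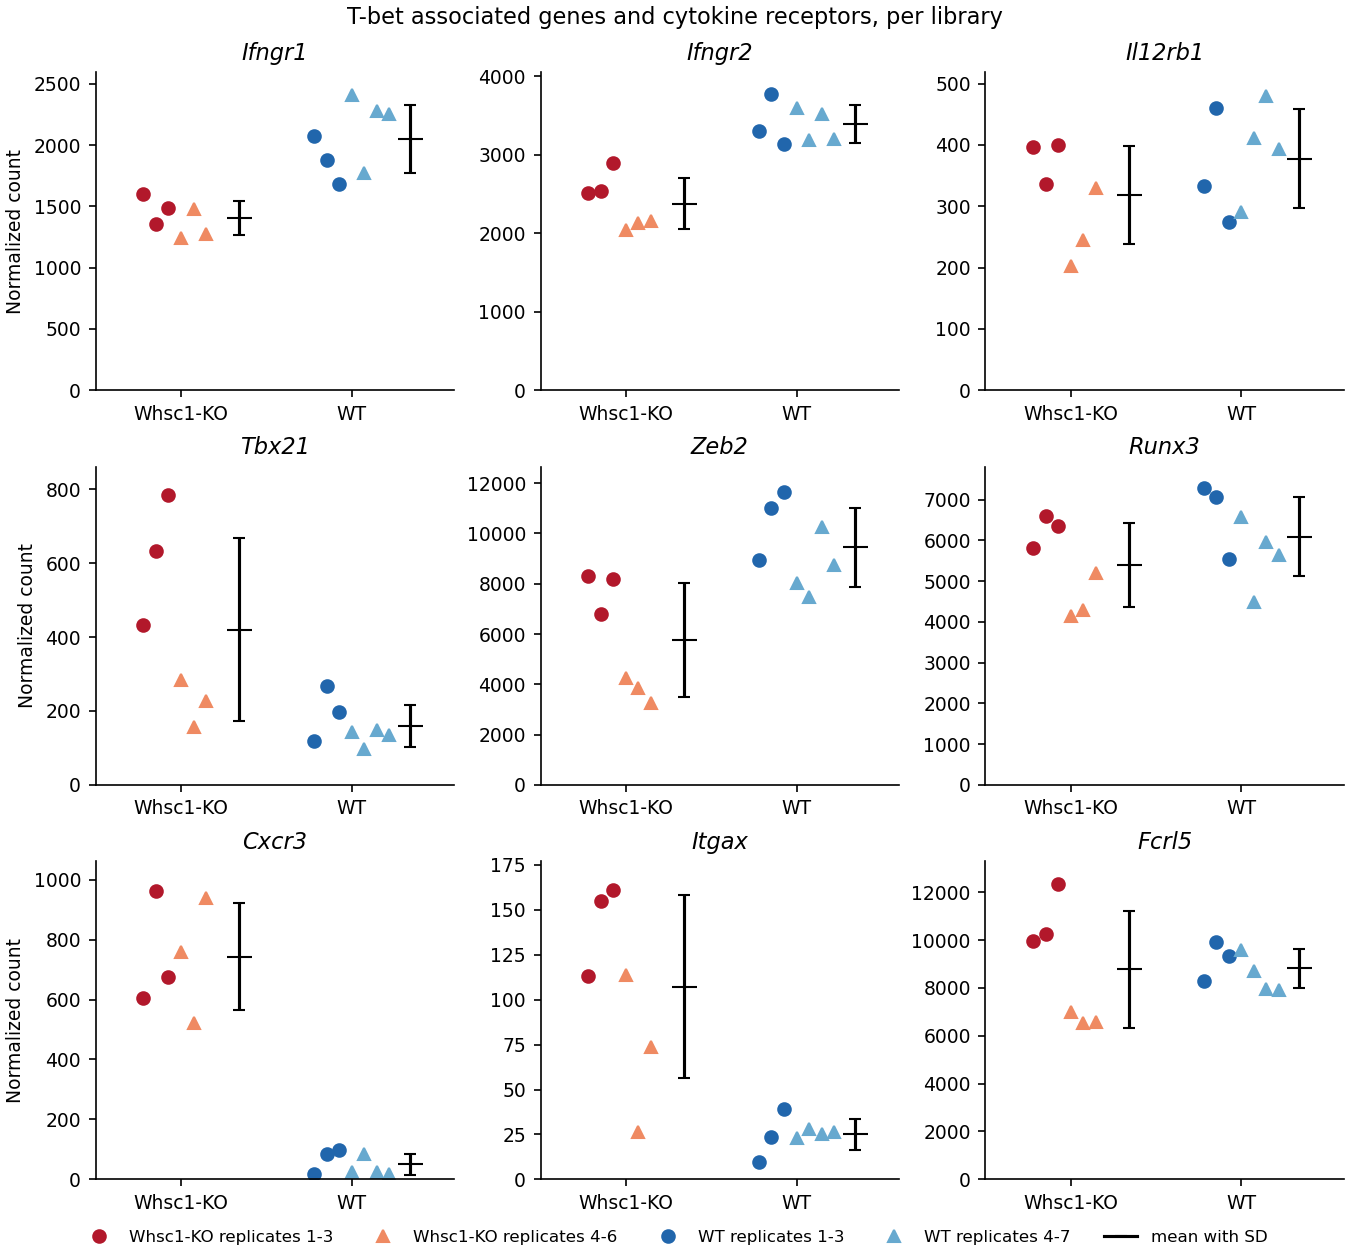
Normalized count (y axis, linear from 0) of each of the 9 genes in each library, Whsc1-KO left of WT, with circles for replicates 1 to 3 and triangles for later replicates; the bars give the mean with the SD. Cxcr3 lies at 521 to 963 in Whsc1-KO and at 17.4 to 96.8 in WT, Ifngr1 and Ifngr2 are lower in all 6 Whsc1-KO libraries, and for 6 of the 9 genes the circles of Whsc1-KO all lie above its triangles.

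Promoter windows from RefSeq (build GRCm38.p6), each of 300 bases with 250 before the start of transcription and 50 after it, were available for 8 of the 9 genes; Il12rb1 was not matched. They are shown for the 3 members that were higher in Whsc1-KO. Capitals mark matches, on either strand, to TGTGGT (RUNX) and CACCTG (ZEB). The windows are chrX:101734098-101734397 for Cxcr3 and chr11:97115282-97115581 for Tbx21, both on the minus strand, and chr7:128129300-128129599 for Itgax on the plus strand.
Cxcr3: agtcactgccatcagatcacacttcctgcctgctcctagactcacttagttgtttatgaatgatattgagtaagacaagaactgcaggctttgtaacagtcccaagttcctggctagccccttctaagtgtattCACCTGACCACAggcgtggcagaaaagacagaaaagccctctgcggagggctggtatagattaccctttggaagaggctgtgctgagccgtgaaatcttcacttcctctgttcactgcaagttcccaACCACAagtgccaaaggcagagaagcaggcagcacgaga
Tbx21: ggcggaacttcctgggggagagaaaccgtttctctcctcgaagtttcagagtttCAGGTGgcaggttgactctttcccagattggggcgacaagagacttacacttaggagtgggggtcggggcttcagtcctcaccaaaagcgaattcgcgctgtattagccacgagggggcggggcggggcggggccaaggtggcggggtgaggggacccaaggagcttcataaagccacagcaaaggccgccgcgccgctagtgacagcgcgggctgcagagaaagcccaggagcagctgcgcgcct
Itgax: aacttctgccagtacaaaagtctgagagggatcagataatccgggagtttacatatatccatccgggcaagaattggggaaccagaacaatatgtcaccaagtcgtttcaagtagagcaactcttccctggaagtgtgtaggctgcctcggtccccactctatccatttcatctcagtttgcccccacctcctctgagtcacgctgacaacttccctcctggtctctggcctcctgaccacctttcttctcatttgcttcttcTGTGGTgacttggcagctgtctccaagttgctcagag
In the Cxcr3 window a match to the ZEB letters lies at position -116 from the RefSeq start. It is followed directly by one to the RUNX letters, and a second RUNX match begins 12 bases after that start. In the GENCODE gene coordinates given below, Cxcr3 reaches to chrX:101734269. By those coordinates all of these matches lie inside the gene and not before it. The Tbx21 window holds 1 ZEB match, and the Itgax window 1 RUNX match, which begins 14 bases after the start.

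A gene was counted if any of its windows matched, and the 8 genes with a window had 12 windows. The percentages beside them count single windows, so genes and background are not on the same basis. Over the 8 genes, RUNX letters were found in 4 (Cxcr3, Itgax, Fcrl5 and Runx3 itself), against 16.8% of 32851 mouse promoter windows. ZEB letters were found in 3 (Cxcr3, Tbx21 and Runx3), against 20.2%. The interferon-gamma activated sequence, searched as TTCNNNGAA, was found in 1 (Zeb2), against 8.3%, and the T-box letters GGTGTGA in none, against 3.98%. No 2 matches shared a base, apart from the Zeb2 match, which lies in 2 overlapping windows. Such matches are letters in a window and not measured binding, and no match says only that these letters are not in this window.

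Ifngr1 encodes the chain that binds IFN-γ (chr10:19591949-19610229, plus strand, GRCm38). Its normalized counts in Whsc1-KO were 1599, 1353 and 1487 in replicates 1 to 3 and 1244, 1481 and 1276 in replicates 4 to 6, against a lowest, median and highest of 1686, 2073 and 2413 in WT. No Whsc1-KO library reached the lowest WT library, and the Whsc1-KO sets of replicates differed little. The means were 1407 ± 138 (SD, n = 6) in Whsc1-KO and 2050 ± 279 (SD, n = 7) in WT, so that Whsc1-KO held 68.6% of the level in WT (log2 fold change -0.54, SE 0.09). Bulk RNA cannot tell fewer expressing cells from less RNA per cell, for this gene or any other reported here. Replicates 1 to 3 alone gave -0.34 and later replicates -0.70.

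Ifngr2 encodes the signalling chain that carries JAK2 (chr16:91547072-91565623, plus strand). It was measured at 2508, 2534 and 2891 normalized counts in Whsc1-KO replicates 1 to 3 and at 2047, 2132 and 2162 in replicates 4 to 6, against 3140, 3299 and 3774 as the lowest, median and highest in WT. All 6 Whsc1-KO libraries lay below WT, with replicates 4 to 6 the lowest. Means were 2379 ± 323 (SD, n = 6) in Whsc1-KO and 3388 ± 243 (SD, n = 7) in WT, a log2 fold change of -0.52 (SE 0.08). It was -0.36 within replicates 1 to 3 and -0.67 within later replicates, and -0.36 against all WT libraries without Whsc1-KO replicates 4 to 6. The neighbouring gene on the lower-coordinate side, Ifnar1, a chain of the type I interferon receptor, fell by 0.40 on the log2 scale (limma adjusted p = 0.000342). Tmem50b, on the other side, had a log2 fold change of 0.04 (adjusted p = 0.621).

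Il12rb1 encodes a chain shared by the receptors for interleukin-12 and interleukin-23 (chr8:70808449-70821424, plus strand). Its counts were 397, 336 and 400 in Whsc1-KO replicates 1 to 3 and 203, 245 and 330 in replicates 4 to 6, against 274, 394 and 480 as the lowest, median and highest in WT. The 3 earlier Whsc1-KO libraries lay inside the WT range and 2 of the later ones below it. The log2 fold change of -0.26 (SE 0.18) over all libraries was 0.12 within replicates 1 to 3 and -0.61 within later replicates. The partner chain for interleukin-12, Il12rb2, stayed between 1.81 and 5.33 in Whsc1-KO and between 0 and 8.57 in WT, too low to be tested.

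Tbx21 lies at chr11:97098071-97115331 on the minus strand. Its normalized counts were 434, 634 and 786 in Whsc1-KO replicates 1 to 3 and 284, 157 and 227 in replicates 4 to 6. In WT they were 119, 267, 198, 144, 97.8, 148 and 136 in replicates 1 to 7. The 3 earlier Whsc1-KO libraries were above every WT library. Of the later 3, 1 was just above the highest WT library, and the other 2 lay inside the range of all WT libraries. Against WT replicates 4 to 7 alone (97.8 to 148), Whsc1-KO replicates 4 to 6 (157 to 284) were all higher. The mean was 420 ± 247 (SD, n = 6) in Whsc1-KO and 158 ± 56.7 (SD, n = 7) in WT, a 2.65-fold difference, with a log2 fold change of 1.25 (SE 0.35). It was 1.70 within replicates 1 to 3, 0.73 within later replicates and 1.98 without Whsc1-KO replicates 4 to 6. Among libraries marked male, Tbx21 ran from 227 to 786 in 4 Whsc1-KO and from 136 to 148 in 2 WT libraries; among those marked female, it was 157 and 284 in 2 Whsc1-KO libraries and ran from 97.8 to 267 in 5 WT libraries. The sexes thus do not separate the genotypes equally well, and sex and set of replicates overlap in Whsc1-KO, where replicates 1, 2, 3 and 6 were male.

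Zeb2 encodes a zinc finger repressor that acts with T-bet in NK cells and T cells (chr2:44983632-45117395, minus strand). It had 8312, 6791 and 8179 normalized counts in Whsc1-KO replicates 1 to 3 and 4243, 3842 and 3245 in replicates 4 to 6, against 7457, 8931 and 11632 as the lowest, median and highest in WT. The later Whsc1-KO libraries were far below WT, whereas 2 of the earlier 3 lay inside the WT range. Means were 5769 ± 2268 (SD, n = 6) in Whsc1-KO and 9445 ± 1558 (SD, n = 7) in WT, with a log2 fold change of -0.79 (SE 0.22). It was -0.27 without Whsc1-KO replicates 4 to 6. The antisense gene Zeb2os had 199 ± 37.5 (SD, n = 6) in Whsc1-KO and 305 ± 72.4 (SD, n = 7) in WT, a log2 fold change of -0.60 (limma adjusted p = 0.00586, and 0.0901 without Whsc1-KO replicates 4 to 6). Whether counting used the strand is not given in the sources used here, so reads of this pair may be shared.

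Runx3 encodes a Runt-domain factor that cooperates with T-bet in T cells (chr4:135120652-135177990, plus strand). It had 5820, 6599 and 6350 normalized counts in Whsc1-KO replicates 1 to 3 and 4151, 4301 and 5197 in replicates 4 to 6, against 4499, 5971 and 7280 as the lowest, median and highest in WT. The groups overlapped widely, and only Whsc1-KO replicates 4 and 5 fell below the WT range. The log2 fold change was -0.18 (SE 0.13), and it was 0.05 without Whsc1-KO replicates 4 to 6.

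Cxcr3 is a gene of 2.73 kb on the X chromosome (chrX:101731535-101734269, minus strand). Its normalized counts were 605, 963 and 675 in Whsc1-KO replicates 1 to 3 and 757, 521 and 939 in replicates 4 to 6. In WT they were 17.4, 84.8, 96.8, 22.8, 83.2, 25.3 and 19.2 in replicates 1 to 7. The lowest Whsc1-KO library was far above the highest WT library, and WT itself fell into 3 libraries at 83.2 to 96.8 and 4 at 17.4 to 25.3. The mean was 743 ± 179 (SD, n = 6) in Whsc1-KO and 49.9 ± 36.2 (SD, n = 7) in WT, a 14.9-fold difference, with a log2 fold change of 4.18 (SE 0.42). Between 19 and 96 reads lay behind each WT value and at least 559 behind each Whsc1-KO value. The 2 Whsc1-KO sets of replicates were alike, with means of 747 in replicates 1 to 3 and 739 in replicates 4 to 6, so the log2 fold change was 4.20 without replicates 4 to 6. Its promoter window, printed above, holds 2 of the RUNX matches found among the members.

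The log2 fold change of Cxcr3 was 3.77 within replicates 1 to 3, 4.49 within later replicates and 4.34 with the sex score in the fit. In libraries marked male it ran from 605 to 963 in 4 Whsc1-KO and stood at 19.2 and 25.3 in 2 WT libraries; in those marked female it stood at 521 and 757 in 2 Whsc1-KO libraries and ran from 17.4 to 96.8 in 5 WT libraries. The authors' deposited table gives Cxcr3 a shrunken log2 fold change of 2.95 and an unshrunken one of 3.90. Cxcr3 is also made by T cells and NK cells, and the part of such cells in its level was not tested.

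Of 15 T cell markers, 5 could be tested and none was called in either direction over all libraries. Within later replicates Il7r and Cd247 were called higher (limma adjusted p = 0.00196 and 0.028) and Cd28 lower (0.00992). Over all libraries, count tests called Il7r higher (adjusted p = 0.0243 in DESeq2 and 0.0395 in edgeR). They called Cd28 lower (0.0205 in DESeq2 and 0.0433 in edgeR). The list summed to 148 to 336 in Whsc1-KO and 136 to 323 in WT, mostly from Cd28, Trac and Il7r, and 7 of its genes stayed under 10 in every library. The T cell receptor signalling gene Cd3e averaged 0.443 in Whsc1-KO and 0.28 in WT, while Cd3g averaged 6.76 in Whsc1-KO and 0.534 in WT, and Thy1 3.68 in Whsc1-KO and 0.297 in WT. Cd8b1 was also higher, at 2.8 to 75.4 in Whsc1-KO and 1.9 to 8.32 in WT, and its highest library, Whsc1-KO replicate 2, was the one with the most Cxcr3. Of 14 NK cell markers, 2 could be tested, and the list summed to 1135 to 4890 in Whsc1-KO and 393 to 784 in WT. Most of it was Il2rb, which was called higher (log2 fold change 2.65, limma adjusted p = 3.94e-05). Prf1, the other tested marker, averaged 86.8 in Whsc1-KO and 99.3 in WT and was not called. Klrd1 averaged 0.852 in Whsc1-KO and 5.36 in WT. Among the others, Klra8 and Klra4 were at 0 in all 13 libraries, and Ncr1 averaged 0.187 in Whsc1-KO and 0.41 in WT. Eomes averaged 5.65 in Whsc1-KO and 0.733 in WT, with 14.2 in Whsc1-KO replicate 2, Klrk1 averaged 9.85 in Whsc1-KO and 3.82 in WT, and Nkg7 averaged 3.38 in Whsc1-KO and 0.734 in WT. Granzyme RNA was seen in Whsc1-KO replicate 3 (Gzmb 115, Gzma 51.3) and, at a lower level, in Whsc1-KO replicate 2 (Gzmb 18.6, Gzma 1.78).

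The genes beside Cxcr3 on the X chromosome differed less between the genotypes than Cxcr3 itself. Ogt, the nearest tested protein-coding gene on the lower-coordinate side, 47.2 kb away, encodes the enzyme that adds N-acetylglucosamine to nuclear and cytosolic proteins, and it fell by 0.57 on the log2 scale (limma adjusted p = 0.000994). Nhsl2, 115 kb away on the other side, had a log2 fold change of 1.00 (adjusted p = 0.0754; leaving out Whsc1-KO replicate 2 or 3 gave 0.0393 and 0.0104). Around Tbx21, Osbpl7 had -0.02 (adjusted p = 0.779) and Tbkbp1 had 0.76 (adjusted p = 0.178). Of the 18 nearest tested genes around the 9 members, 1 rose, against 26.1% of all tested genes, 9 fell, against 25.7%, and 8 did not pass. Their distances ran from 3.4 kb (Mast3 from Il12rb1) to 3697 kb (Acvr2a from Zeb2), and both of these genes fell. Within replicates 1 to 3, Mast3, Arrdc2 (beside Il12rb1) and Ogt did not pass (limma adjusted p = 0.515, 0.18 and 0.117).

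Itgax encodes integrin alpha X, the CD11c chain (chr7:128129547-128150657, plus strand). It had 113, 155 and 161 normalized counts in Whsc1-KO replicates 1 to 3 and 114, 26.1 and 73.7 in replicates 4 to 6. In WT it had 9.6, 23.8, 39.3, 22.8, 28.1, 25.3 and 26.5 in replicates 1 to 7. All Whsc1-KO libraries except replicate 5 were above WT, and that library lay inside the WT range. Means were 107 ± 50.9 (SD, n = 6) in Whsc1-KO and 25.1 ± 8.76 (SD, n = 7) in WT, a 4.27-fold difference, with a log2 fold change of 1.93 (SE 0.40). It was 2.70 within replicates 1 to 3 and 1.21 within later replicates. The lowest WT library rested on 11 reads.

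CD11c is also carried by dendritic cells and macrophages. The myeloid marker list summed highest in Whsc1-KO replicates 4 to 6, where Itgax averaged 71.2, against 143 in Whsc1-KO replicates 1 to 3. Some of these markers were also above WT in Whsc1-KO replicates 1 to 3. Adgre1 ran from 488 to 822 there and from 70.8 to 339 in WT, and Cd68 from 370 to 476 and from 178 to 326. Others overlapped with WT, such as Csf1r at 14.5 to 31.1 there and 8.4 to 31.6 in WT. The list of 11 dendritic cell markers summed to 3234 to 6525 in Whsc1-KO and 6384 to 11617 in WT, most of it Flt3. Zbtb46 ran from 46.6 to 257 in Whsc1-KO and from 129 to 309 in WT. Ccr9 ran from 149 to 866 in Whsc1-KO and from 68.4 to 418 in WT, and Batf3 from 9.76 to 72.8 and from 34.3 to 179. Siglech and Clec9a reached at most 3.35 in any library. The part of myeloid and dendritic cells in the level of Itgax was not tested. The neighbour Itgam, which encodes CD11b, rose by 0.84 on the log2 scale (limma adjusted p = 0.00366, and 0.0621 without Whsc1-KO replicates 4 to 6), and the adjacent family member Itgad had 4.66 to 24 normalized counts in Whsc1-KO and 0 to 0.91 in WT, too low to be tested. Cox6a2, on the other side of Itgax, fell by 1.59 (limma adjusted p = 0.0125, and 0.265 without Whsc1-KO replicates 4 to 6). Itgb2, the shared beta chain of these integrins, rose by 0.31 (adjusted p = 0.00079).

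Fcrl5 encodes an Fc receptor-like protein of B cells (chr3:87435773-87500678, plus strand). It had 9951, 10236 and 12354 normalized counts in Whsc1-KO replicates 1 to 3 and 6981, 6518 and 6575 in replicates 4 to 6, against 7920, 8693 and 9913 as the lowest, median and highest in WT. The earlier Whsc1-KO libraries were all above WT and the later ones all below it, so that the means were nearly equal, at 8769 ± 2428 (SD, n = 6) in Whsc1-KO and 8814 ± 803 (SD, n = 7) in WT. Accordingly the log2 fold change was -0.05 (SE 0.14) over all libraries, 0.24 within replicates 1 to 3 and -0.35 within later replicates. Its neighbour and relative Fcrl1 fell by 1.21 on the log2 scale (limma adjusted p = 0.000482), with no overlap.

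**Figure D2:**
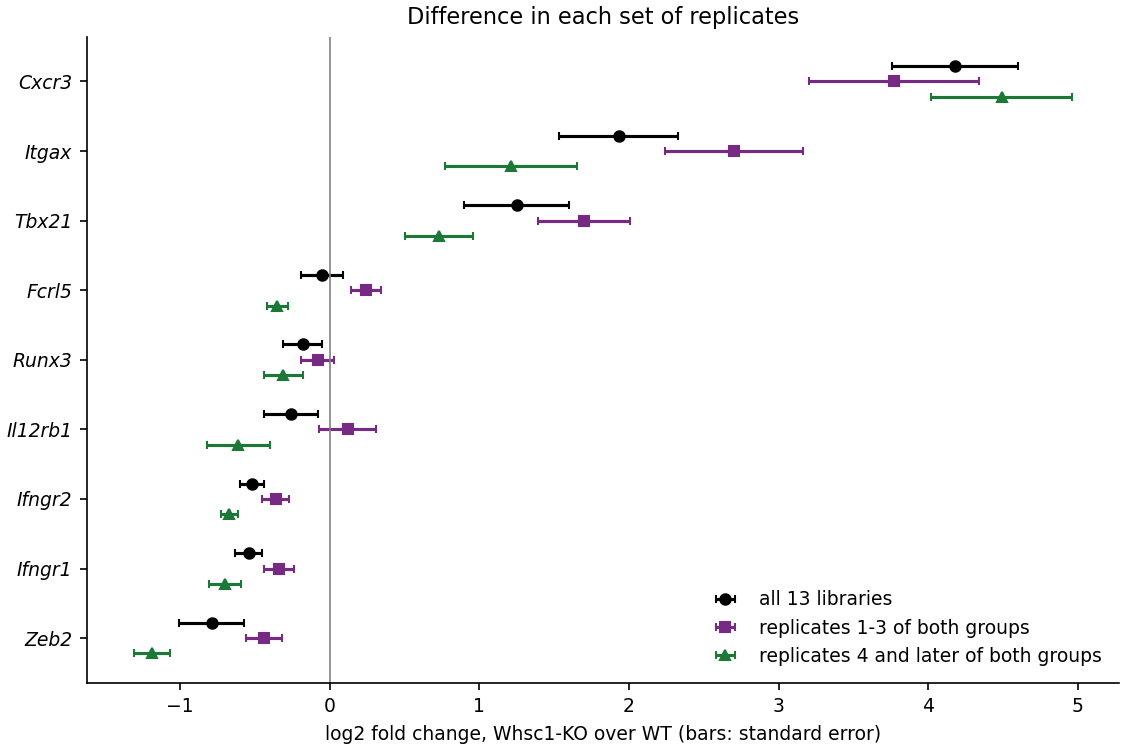
Log2 fold change of each gene (x axis, Whsc1-KO over WT; y axis, genes) over all 13 libraries (black), within replicates 1 to 3 (purple) and within later replicates (green), with the standard error as the bar. Cxcr3 stays between 3.77 and 4.49, Itgax and Tbx21 are larger within replicates 1 to 3, and Fcrl5 and Il12rb1 lie on either side of 0 in the 2 sets.

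Much of the spread of these genes within Whsc1-KO ran between its 2 sets of replicates. Replicates 1 to 3 were all above replicates 4 to 6 for 6 of the 9 genes, Tbx21, Zeb2, Fcrl5, Il12rb1, Runx3 and Ifngr2, against 24.7% of all tested genes. The mean of replicates 1 to 3 was 2.78 times that of replicates 4 to 6 for Tbx21, 2.05 times for Zeb2, 1.62 times for Fcrl5 and 1.25 times for Ifngr2. Cxcr3 was the exception in size, at 1.01 times. The coefficient of variation in Whsc1-KO ran from 9.82% for Ifngr1 to 58.8% for Tbx21, and in WT from 7.16% for Ifngr2 to 72.5% for Cxcr3. Without Whsc1-KO replicates 4 to 6 the fit called 6 of the 9 in either direction, against 29.6% of tested genes. Within later replicates it called 3 higher, against 30.0%, and 5 lower, against 30.1%.

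IgG2c, the antibody class whose switching T-bet promotes in C57BL/6 mice, followed the same split of replicates. Ighg2c had 4335, 9188 and 6221 normalized counts in Whsc1-KO replicates 1 to 3 and 1542, 256 and 544 in replicates 4 to 6, against 172, 428 and 1587 as the lowest, median and highest in WT. The earlier Whsc1-KO libraries were all above WT, and the later ones lay inside the range of all WT libraries. WT differed by set as well, at 489 to 1587 in replicates 1 to 3 and 172 to 428 in replicates 4 to 7. Against WT replicates 4 to 7 alone, Ighg2c was higher in Whsc1-KO replicates 4 and 6 and inside the range in replicate 5. Its log2 fold change of 2.04 had a limma adjusted p of 0.0427, which leaving out any one of Whsc1-KO replicates 1 to 4 or WT replicates 2 and 4 to 7 moved to between 0.059 and 0.0979. Without Whsc1-KO replicates 4 to 6 it was 3.73 (adjusted p = 0.000899), and within later replicates 1.04 (adjusted p = 0.145). Ighg3 rose by 1.66 and Ighg1 by 1.32 (adjusted p = 0.00028 and 0.000444), and Ighg2b, at 0.30, did not pass (adjusted p = 0.305).

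**Figure D3:**
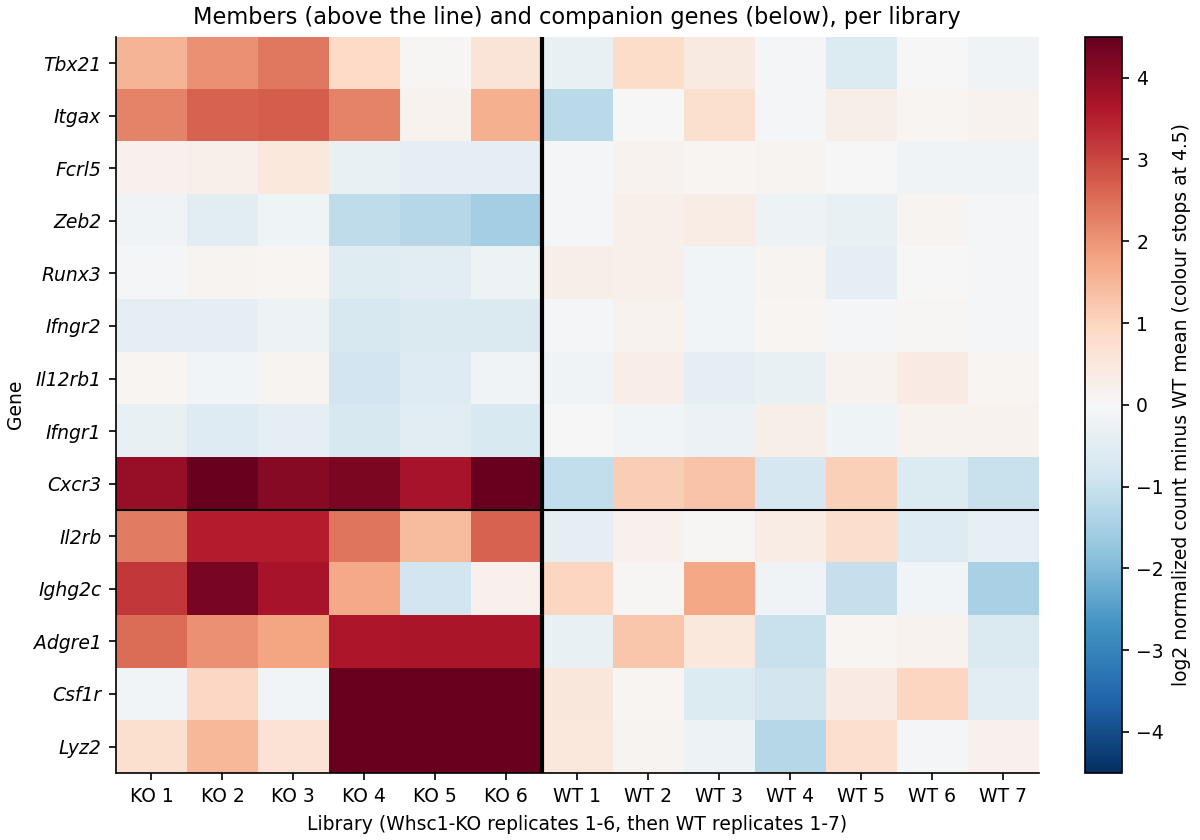
Log2 normalized count minus the WT mean of the gene (colour, stopping at 4.5) for the 9 genes above the horizontal line and for 5 others below it, with genes down the y axis and libraries along the x axis, Whsc1-KO left of WT. Tbx21, Itgax and Ighg2c are strongest in Whsc1-KO replicates 1 to 3, the myeloid genes Lyz2 and Csf1r in Whsc1-KO replicates 4 to 6, and Cxcr3 is high in all 6.

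Levels of different genes were compared as normalized count per kb of merged exon length. In Whsc1-KO the order was Fcrl5 at 2520, Runx3 at 1080, Ifngr2 at 632, Ifngr1 at 494, Cxcr3 at 429, Zeb2 at 289, Tbx21 at 169, Il12rb1 at 77.6 and Itgax at 22.3. In WT it was Fcrl5 at 2533, Runx3 at 1216, Ifngr2 at 899, Ifngr1 at 720, Zeb2 at 474, Il12rb1 at 92, Tbx21 at 63.7, Cxcr3 at 28.8 and Itgax at 5.22. Cxcr3 held rank 5 in Whsc1-KO and rank 8 in WT, and Tbx21 rank 7 in both. In Whsc1-KO the libraries' ranges overlapped between each pair of neighbours in the order except Fcrl5 with Runx3, Runx3 with Ifngr2, and Il12rb1 with Itgax. In WT they overlapped for Runx3 with Ifngr2, Ifngr2 with Ifngr1, Il12rb1 with Tbx21, and Tbx21 with Cxcr3, and not for the other 4 pairs. With the length of the longest transcript in place of merged exons, Zeb2 took rank 5 in Whsc1-KO, ahead of Cxcr3, and rank 3 in WT, and Ifngr1 passed Ifngr2 in both groups.

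**Figure D4:**
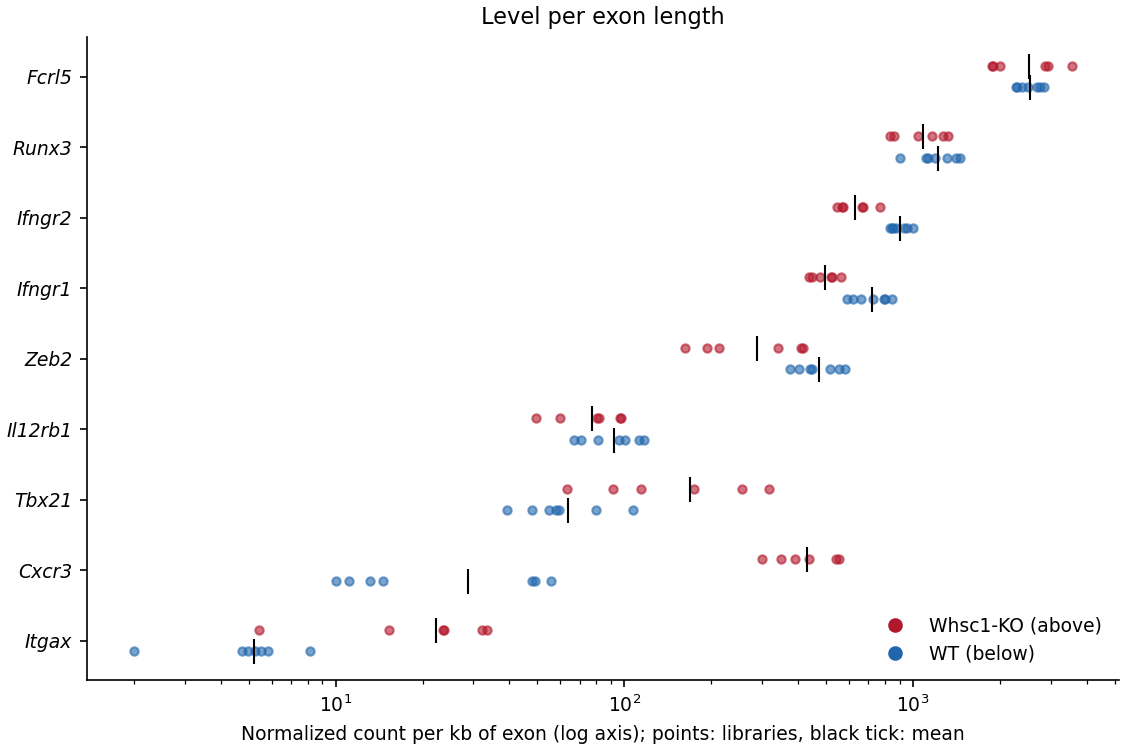
Normalized count per kb of merged exon length (x axis, log scale) of each gene (y axis) in each library, with Whsc1-KO above WT and a black tick at the mean. Cxcr3 averages 429 in Whsc1-KO and 28.8 in WT and crosses Il12rb1, Tbx21 and Zeb2, while Fcrl5 and Runx3 stay the highest in both groups.

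The genes most like Tbx21 and Cxcr3 were sought by Pearson's r of log2 values over the 13 libraries after subtracting each genotype's mean, so that r reflects libraries within a genotype. The values share libraries and size factors, and for Tbx21 they share the split of Whsc1-KO replicates. For Cxcr3 the log2 spread within a genotype lay mostly in WT. There replicates 2, 3 and 5 stood at 83.2 to 96.8 and the other libraries at 17.4 to 25.3, all on few reads. Each set of 5 genes is the top of all tested genes. Nearest to Tbx21 were Trabd2b (r = 0.949), Tnni3 (0.939), Gm1043 (0.939), Cdk14 (0.933) and Fgl2 (0.933). Fgl2, a secreted fibrinogen-like protein, averaged 5644 in Whsc1-KO replicates 1 to 3, 3024 in Whsc1-KO replicates 4 to 6 and 3315 in WT. Nearest to Cxcr3 were Ttll9 (0.895), Pnp2 (0.878), Myl6 (0.856), Slco2a1 (0.851) and Iigp1 (0.850). Ttll9 ran from 290 to 427 in Whsc1-KO and from 67.2 to 149 in WT, and Pnp2, a purine nucleoside phosphorylase, from 359 to 526 in Whsc1-KO and from 84 to 321 in WT. Iigp1, an interferon-induced GTPase, ran from 30.8 to 409 in Whsc1-KO and from 4.8 to 508 in WT.

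The rest of the pathway was followed in lists ordered from ligands to targets, each read beside the median log2 fold change of all tested genes, -0.003, and beside the 26.1% of them called higher and 25.7% called lower. The fit without Whsc1-KO replicates 4 to 6 called 29.6% of tested genes in either direction. Several of the counts, such as 2 of 8 or 6 of 18, lie near those shares. Of 8 ligand genes only 3 had enough RNA to be tested, 2 fell and none rose. Il12a, the p35 chain of interleukin-12, was at 916 ± 177 (SD, n = 6) in Whsc1-KO and 2275 ± 187 (SD, n = 7) in WT and fell by 1.33 on the log2 scale (limma adjusted p = 1.35e-06). Ebi3, the chain shared by interleukins 27 and 35, fell by 0.78 (adjusted p = 0.00307, and 0.0723 without Whsc1-KO replicates 4 to 6). Ifng itself stayed at 0 to 3.11 in Whsc1-KO and 0 to 4.16 in WT, and Il12b at 0 to 17.4 in Whsc1-KO and 0 to 10.5 in WT, so neither was tested.

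Receptor chains for these cytokines other than the members mostly fell. Of 6 tested, 5 fell and none rose, with a median of -0.79. On leaving out Whsc1-KO replicates 4 to 6, Il27ra lost its call (limma adjusted p = 0.00694 with them and 0.119 without) and Il18r1 gained one (0.0868 and 0.0427). Il2rg, the common gamma chain, fell by 0.71 and Il21r by 0.52 (limma adjusted p = 0.000105 and 0.000206), both with no overlap between groups. Il6st, which encodes gp130, fell by 0.82 (adjusted p = 0.00379). Il18rap, a chain of the interleukin-18 receptor, fell by 2.27 (adjusted p = 0.000514), and was a low gene, at 13.8 ± 10.9 (SD, n = 6) in Whsc1-KO and 66.9 ± 30.6 (SD, n = 7) in WT.

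Among 10 transducers and restrainers of the IFN-γ and interleukin-12 signal, 4 fell, 2 rose and 4 did not pass, with a median of -0.13. Jak2 fell by 0.60 and Jak1 by 0.46 (limma adjusted p = 0.000189 and 0.00505), and Stat4, which carries the interleukin-12 signal, by 0.54 (adjusted p = 0.0092). Pias1, which restrains signalling through this pathway, fell by 0.24 (adjusted p = 0.00274). The feedback inhibitor Socs1 rose by 0.61 (adjusted p = 0.01). Without Whsc1-KO replicates 4 to 6 only 2 of the 10 fell, Jak2 and Pias1, and none rose; adjusted p was 0.106 for Jak1, 0.0963 for Stat4 and 0.18 for Socs1.

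IFN-γ-induced genes did not move one way. Of 23 tested, 8 fell, 3 rose and 12 did not pass, with a median of -0.13. Without Whsc1-KO replicates 4 to 6 the median was 0.04, with 5 lower and 3 higher. With the sex score in the fit it was -0.22, with 11 lower and 3 higher. The guanylate-binding protein genes Gbp4 and Gbp5 fell by 0.83 and 0.80 (limma adjusted p = 0.000307 for each), and the factor Irf8 fell by 0.28 (adjusted p = 0.00163). Cxcl10, a ligand of CXCR3, rose by 1.61 (adjusted p = 0.00419), at 45.7 to 137 in Whsc1-KO and 8.32 to 53.5 in WT. Of the other ligands of CXCR3, Cxcl9 and Cxcl11 were listed at 0 in all 13 libraries.

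Targets that T-bet is known to regulate in T cells and NK cells mostly had too few reads to be tested or did not pass. Of 22, 12 could be tested, 3 rose, 2 fell and 7 did not pass, with a median of 0.09. Il2rb, the beta chain of the interleukin-2 and interleukin-15 receptors, was at 1051 to 4522 in Whsc1-KO and 260 to 669 in WT and rose by 2.65 (limma adjusted p = 3.94e-05), and its mean in Whsc1-KO replicates 1 to 3 was 1.97 times that in replicates 4 to 6. The chemokine gene Ccl3 rose by 1.84 (adjusted p = 0.00375, and 0.075 without Whsc1-KO replicates 4 to 6), and Furin, which encodes a protease, by 0.20 (adjusted p = 0.0442, and 0.222 without those libraries). The sphingosine-1-phosphate receptor gene S1pr1, which governs exit from lymphoid tissue, fell by 0.97 (adjusted p = 0.00177). Il2rb is also the most abundant of the 14 NK cell markers, of which 2 could be tested and 7 stayed under 10 in every library.

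Regulators and partners of T-bet held 1 gene that rose, 5 that fell and 8 that did not pass, of 14 tested, with a median of -0.10. Id2, an inhibitor of E proteins, rose by 1.94 (limma adjusted p = 0.000145) and stood at 506 to 1227 in Whsc1-KO and 88.8 to 316 in WT. Bcl6, a repressor that antagonises T-bet in T cells, fell by 1.11 (adjusted p = 0.000161), with 763 to 1106 in Whsc1-KO and 1412 to 2908 in WT. Foxo1 fell by 0.34 and Zeb1, the relative of Zeb2, by 0.28 (adjusted p = 0.00346 and 0.00171). Among 11 tested relatives of the members, 4 rose and 6 fell, including Itgal, the alpha chain of LFA-1, by 0.46 (adjusted p = 0.000462). Of these relatives 1 rose and 4 fell without Whsc1-KO replicates 4 to 6.

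Endosomal Toll-like receptor genes, whose signals induce T-bet in B cells, had 2 members that fell, 1 that rose and 5 that did not pass, of 8, with a median of -0.22. Unc93b1, the chaperone of these receptors, fell by 0.47 and Irf5 by 0.36 (limma adjusted p = 0.000293 and 0.000879), and the adaptor gene Myd88 rose by 0.21 (adjusted p = 0.015). The counts depended on the fit: with the sex score 6 of the 8 fell and 1 rose. Within later replicates 5 fell and none rose, and within replicates 1 to 3 none fell and 1 rose. Tlr7 had a log2 fold change of -0.30 (adjusted p = 0.0664), which passed when Whsc1-KO replicate 1, 2 or 3 was left out (0.0448, 0.0454 and 0.0227). It was -0.42 with the sex score (limma adjusted p = 0.00633), -0.68 within later replicates (0.000813) and 0.10 within replicates 1 to 3 (0.353).

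Genes known to be high in T-bet-positive B cells of aged mice did not rise together. Of 18, 6 rose, 3 fell and 9 did not pass, with a median of 0.05. With the sex score in the fit, 6 rose and 7 fell. Lgals3, which encodes galectin-3, rose by 1.63 (limma adjusted p = 0.000282), while Fas fell by 1.80 and Itgb1 by 0.87 (adjusted p = 7.25e-06 and 6.78e-06), the last 2 with no overlap between groups. Of 10 genes known to be low in those cells, 7 fell, 1 rose and 2 did not pass, with a median of -0.68; without Whsc1-KO replicates 4 to 6, 4 fell and the median was -0.35. Fcer2a, which encodes CD23, fell by 1.51, Ccr7 by 1.2 and Il4ra by 0.58 (adjusted p = 0.000665, 0.000229 and 0.000678), and Cd24a rose by 0.76 (adjusted p = 0.000185). The B cell markers moved alongside: of 8, 5 fell and none rose, and they summed to 243405 to 323341 in Whsc1-KO and 360416 to 416440 in WT.

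Cxcr3 was set beside its ligands and other chemokine receptors. The list of its ligands and other receptors had 8 tested genes, of which 2 rose, 2 fell and 4 did not pass, with a median of 0.28. Ccr9, a receptor for gut homing, was at 149 to 866 in Whsc1-KO and 68.4 to 418 in WT and rose by 1.68 (limma adjusted p = 0.0108, and 0.259 without Whsc1-KO replicates 4 to 6). Ccr7, which leads cells into lymphoid tissue, fell by 1.2 (adjusted p = 0.000229). Cxcr5, the follicle homing receptor, fell by 0.25 (adjusted p = 0.0307), a call that ended on leaving out WT replicate 2, 4, 6 or 7 or Whsc1-KO replicate 4 or 5 (adjusted p between 0.0527 and 0.0729).

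**Figure D5:**
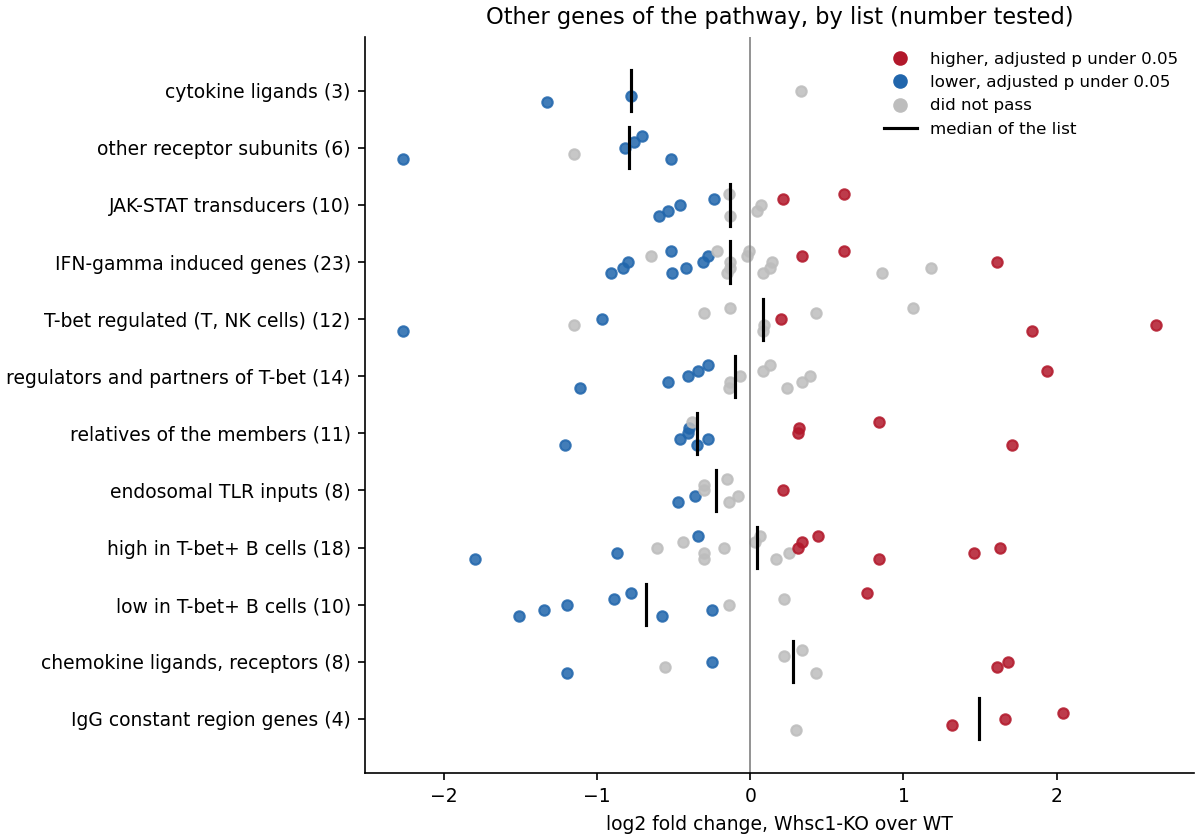
Log2 fold change (x axis, Whsc1-KO over WT) of each tested gene in 12 lists (y axis, number tested in brackets), coloured by whether the limma adjusted p was under 0.05, with the list median as a black tick. Receptor subunits and ligands lie mostly below 0 with medians of -0.79 and -0.78, and the IgG constant region genes above it with a median of 1.49.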

How the data were processed

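Stranded, paired-end poly-A RNA-seq libraries with 76-base reads were made from 6 Whsc1-KO and 7 WT samples, which the series' design text calls independent biological replicates. The authors deposited normalized counts per gene (a signal on the scale of reads). The submitters' processing notes name the tools DESeq2 (1.10.1), RSEM (1.2.28) and STAR (2.5.1b) and 2 builds, mm9 and GRCm38, without saying what each was for. In each library 100% of values were whole multiples of 1 step within 0.05 reads, which gave back the reads. The authors also deposited a table with a log2 fold change and an adjusted p-value per gene, of which only the log2 fold changes are quoted.

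Genes were tested in limma (version 3.58.1, trend option) on log2(normalized count + 1), two-sided, with Benjamini-Hochberg adjustment over the 13947 genes with 10 or more in at least 6 of 13 libraries. The remaining genes were left out. The whole-table fit was tested on simulated data. Count tests on the recovered reads (DESeq2 1.42.0 and edgeR 4.0.16) were alternatives, beside other pseudocounts, filters and scalings, a replicate block, a sex score and libraries left out. R 4.3.3 ran the fits, and tables and plots were made in Python 3.11.15 (pandas 2.3.3, numpy 2.4.6, matplotlib 3.10.9, scipy 1.17.1).

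The 9 genes and all lists were chosen with earlier results of these data known. Named besides the 9 are Whsc1, the 4 genes of smallest adjusted p in each list, all IgG constant region genes, the 3 most abundant markers of each cell type, the sex-linked genes, the 5 genes most like Tbx21 and like Cxcr3, and the nearest tested protein-coding gene on each side of each member; others (Zeb2os, Itgad, Socs1, Il18r1, Il27ra, Ifng, Il12b, Il12rb2, Cxcl9, Cxcl11 and defining markers of other cells) were added after their values were seen. A symbol stands for its identifier with the highest mean. Coordinates and exon lengths come from GENCODE M21 (GRCm38), which matched 99.1% of identifiers, and promoters from RefSeq (GRCm38.p6). Some results are not reported here.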

Additional observations from a re-analysis of the deposited data

Results flagged for a closer look

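Of 178 groups of libraries examined for 1 library far from the others, 9 held one, and chance flags about 1 in 20 such groups. None of the 9 T-bet associated genes was among them. In WT replicate 5, 4 genes stood apart above the other WT libraries: Irf8 at 34783 (others 30272 to 31969), Ccr9 at 418 (68.4 to 162), Ly6c2 at 1577 (320 to 766) and Iigp1 at 508 (4.8 to 183). WT replicate 2 stood apart for Gm1043 at 82.8 (others 27.1 to 49.4). In Whsc1-KO replicate 3 the high genes were Il18rap at 35.7 (others 7.59 to 12.4) and Prf1, which encodes perforin, at 182 (50.6 to 95). Whsc1-KO replicate 6 stood apart for Ly6c2 at 3614 (374 to 1350) and Iigp1 at 409 (30.8 to 127). Leaving out Whsc1-KO replicate 3 gave Prf1 a log2 fold change of -0.54 (limma adjusted p = 0.0374), against -0.30 (0.364) with it.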

How the results depend on the processing

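Over all tested genes the reported limma fit made 3636 higher and 3588 lower calls. The log2 fold changes and counts of the 9 genes and lists kept their direction and size in 324 of the comparisons with another setting and moved in 14, all of which left out sets of replicates. Within replicates 1 to 3 limma called 947 genes higher and 1222 lower, and 18 list genes lower; Ifngr1 had a log2 fold change of -0.34, Ifngr2 of -0.36 and Il12rb1 of 0.12. Without Whsc1-KO replicates 4 to 6 it called 1947 higher and 2177 lower, and Tbx21 had 1.98, Zeb2 -0.27, Ifngr2 -0.36 and Fcrl5 0.30. Within later replicates it called 4184 higher and 4196 lower, and Ifngr2 had -0.67 and Fcrl5 -0.35. Leaving out 1 library at a time gave 3135 to 3776 higher and 3148 to 3723 lower calls, 17 to 24 list genes higher and 38 to 45 lower, and log2 fold changes of 4.0 to 4.4 for Cxcr3, 1.03 to 1.49 for Tbx21, 1.73 to 2.29 for Itgax, -0.92 to -0.65 for Zeb2, -0.16 to 0.03 for Fcrl5, -0.25 to -0.11 for Runx3, -0.33 to -0.14 for Il12rb1, -0.58 to -0.50 for Ifngr1 and -0.58 to -0.48 for Ifngr2. Of other named genes, 14 values changed sign, none of them called: Etv3 (0.17 and 0.07), Ighg2b (-0.05 and -0.04), Il7r (-0.15 and -0.06), Osbpl7 (0.05 and 0.01), Prf1 (0.23), Tlr7 (0.10), Tmem50b (-0.02), Trac (-0.13) and Zbtb46 (0.04 and 0.14), all but Osbpl7 at 0.01 (without WT replicate 5) under a setting that left out sets of replicates; the cause was not tested. Ighg2c lost its call with no filter and with the sex score (adjusted p = 0.0573 and 0.0801). Same-numbered libraries deviated together only weakly (r between -0.108 and 0.206), so the numbers were not taken to pair them; with a replicate block limma called 3023 higher and 3085 lower. Depth limits Cxcr3 and Itgax most in WT, where the fewest reads were 19 and 11.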

Other observations

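In WT, the 3 libraries with the most Cxcr3 were also the 3 with the least Ifngr1: WT replicates 2, 3 and 5 had 84.8, 96.8 and 83.2 normalized counts of Cxcr3 and 1876, 1686 and 1769 of Ifngr1, and WT replicates 1, 4, 6 and 7 had 17.4, 22.8, 25.3 and 19.2 of Cxcr3 and 2073, 2413, 2277 and 2256 of Ifngr1. Those 3 libraries were all marked female by sex-linked genes, as were WT replicates 1 and 4. Tbx21 did not follow the same split, at 267, 198 and 97.8 in WT replicates 2, 3 and 5. This was noticed after the values were seen and was not tested.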
